A study of Mus musculus with 85 samples.

Results

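The miR-125, miR-99 and miR-100 family was followed through 85 mouse hearts. Its 5 members were taken by name from the deposited count table: mmu-miR-125a-5p, mmu-miR-125b-5p, mmu-miR-99a-5p, mmu-miR-99b-5p and mmu-miR-100-5p, written without the species prefix from here on. They are 5 of the 548 mature miRNAs that had a count in any library. The choice was made by name, with earlier results of these data known.

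Each library was made from the heart of 1 female mouse. The animals belong to the HMDP (Hybrid Mouse Diversity Panel), which gathers many inbred strains that differ in genotype. They were 16 weeks old, after 8 weeks on chow diet and 8 further weeks on high-fat/high-sucrose diet. The 85 libraries thus form a single group with 1 library per heart, and no comparison of diets, sexes or strains was made. Titles give a number for the animal and one for the library, and no strain or genotype. Whole hearts were used, so fewer cells of a type and less RNA per cell cannot be told apart.

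MiRNAs are short RNAs that guide the silencing complex to messenger RNAs, mostly through the seed at their 5′ end. MiR-125 is the vertebrate relative of the worm developmental timing miRNA lin-4, and it is encoded next to let-7, the other miRNA known for that role. MiR-99 and miR-100 are known as regulators of mTOR and insulin-like growth factor signalling. A miR-99 or miR-100 gene, a let-7 gene and a miR-125 gene lie together at each of 3 places in the mouse genome, an arrangement that is conserved across animals.

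The sequences show why the 5 members form 2 groups, and which members the counting could confuse. They are given from RefSeq (GRCm38.p6), 5′ to 3′, with the seed (bases 2 to 8) in capitals. All 5 members had an entry there.
miR-125b-5p: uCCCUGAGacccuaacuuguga
miR-125a-5p: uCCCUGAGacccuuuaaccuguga
miR-99a-5p: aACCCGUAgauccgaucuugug
miR-100-5p: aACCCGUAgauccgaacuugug
miR-99b-5p: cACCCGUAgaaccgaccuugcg
let-7a-5p: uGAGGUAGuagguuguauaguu
let-7c-5p: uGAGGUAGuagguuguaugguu
let-7e-5p: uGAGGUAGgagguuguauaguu

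The 2 miR-125 members shared the seed CCCUGAG and their first 13 bases. The 3 miR-99 and miR-100 members shared the seed ACCCGUA. MiR-99a-5p and miR-100-5p differed at 1 of 22 bases, U16A, where positions are counted from 1 at the 5′ end and the base of miR-99a-5p comes first. MiR-99b-5p differed from miR-99a-5p at 4 bases. The let-7 partners were as close to each other: let-7a-5p and let-7c-5p differed by A19G, and let-7a-5p and let-7e-5p by U9G. How the authors' counting treated a read that fits several of these, or several loci, is not given in the sources used here, so the split between miR-99a and miR-100 and between the let-7 members is uncertain to that extent.

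In the GENCODE M21 annotation of GRCm38, the first cluster lies on the plus strand of chromosome 16. It holds Mir99a (chr16:77598936-77599000), Mirlet7c-1 (chr16:77599657-77599750) and Mir125b-2 (chr16:77646273-77646343). Mir99a and Mirlet7c-1 are 656 bases apart, and 46522 bases separate Mirlet7c-1 from Mir125b-2. All 3 lie within the long noncoding gene Mir99ahg and in none of its annotated exons, while Mir125b-2 overlaps an exon of C130023A14Rik.

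The chromosome 9 cluster has the same order and strand, with Mir100 (chr9:41531425-41531504), Mirlet7a-2 (chr9:41536716-41536811) and Mir125b-1 (chr9:41581926-41582002). Its gaps are 5211 and 45114 bases. The 3 genes lie within 3110039I08Rik and Gm49317, and Mir125b-1 overlaps an exon of Gm28119.

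The chromosome 17 cluster is far more compact, as the map of the precursor genes shows. Mir99b (chr17:17830188-17830257), Mirlet7e (chr17:17830352-17830444) and Mir125a (chr17:17830812-17830879) are separated by gaps of only 94 and 367 bases on the plus strand. They lie within Spaca6, and Mir125a overlaps an exon of it.

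**Figure D1:**
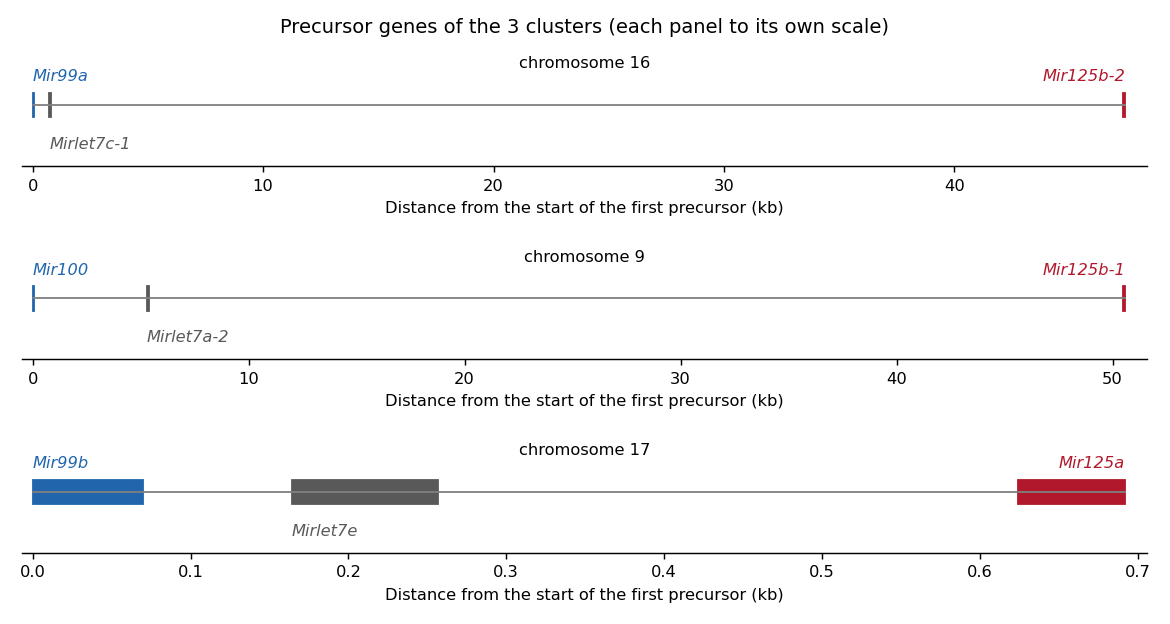
Positions of the precursor genes in the 3 clusters, as distance in kb from the start of the first precursor, with each panel drawn to its own scale. Blue marks the miR-99 and miR-100 genes, grey the let-7 genes and red the miR-125 genes. The chromosome 9 and 16 clusters have gaps of 45114 and 46522 bases before the miR-125 gene, and the chromosome 17 cluster a gap of 367 bases.

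MiR-125b-5p has identical sequence at Mir125b-1 and Mir125b-2, so its counts belong to 2 clusters at once. Likewise let-7c-5p is listed at Mirlet7c-1 and at Mirlet7c-2 on chromosome 15, and the sequence of let-7a-5p is found in the hairpins of Mirlet7a-1 and Mirlet7a-2. MiR-125a-5p, miR-99a-5p, miR-99b-5p, miR-100-5p and let-7e-5p each belong to 1 cluster here.

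The library totals ran from 1457 to 30202 counts with a median of 12248, and the family took 23734 of 1142200 counts, or 2.08%. Values are CPM, the counts of a miRNA scaled to a common total of all miRNA counts in a library, unless stated otherwise. At the median total, a count of 0 (taken as up to 3 counts) allows up to 244.9 CPM. Use of molecular identifiers in the counting is not given in the sources used here, so all intervals and floors cover counting error only. Libraries are compared within 8 runs of library numbers (1 to 10, 11 to 14, 15 to 18, 19, 20 to 21, 22 to 48, 49 to 59 and 60 to 85). These runs were set from the overall miRNA profile of the same libraries and are no groups of the labels. Differences in level between runs are therefore given with no test, and whether they come from library preparation or from the animals cannot be told apart.

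MiR-125b-5p was by far the most counted member. It had 16329 counts, 1.43% of all counts (95% Wilson interval, 1.41% to 1.45%), and was the 16th most counted miRNA. Its counts ran from 17 (library 14) through a median of 131 to 696 (library 9). In CPM the lowest library had 4843, the median was 10413 and the highest had 63336. MiR-125b-5p thus made up 68.8% of the counts of the family, and between 54.8% and 77.98% in every single library.

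MiR-125a-5p, with the same seed, came next with 3849 counts (rank 37). Its level was 1084 CPM in the lowest library, 2891 in the median and 20811 in the highest, library 18. It held 16.2% of the family's counts.

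MiR-99a-5p followed with 2977 counts (rank 41), or 12.5% of the family. Its lowest, median and highest levels were 774, 2102 and 7340 CPM. The span from the lowest to the highest library was 9.48-fold, against 13.1-fold for miR-125b-5p and 19.2-fold for miR-125a-5p.

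The other members were near the detection limit. MiR-100-5p had 342 counts, with 0 in 6 libraries, a median of 3 counts (246 CPM) and at most 22 counts (library 52). MiR-99b-5p had 237 counts, with 0 in 17 libraries, a median of 2 counts (126 CPM) and at most 14. Together they were under 3% of the family (1.44% and 0.999%), and all 5 members had a count in 64 libraries.

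Neighbours in this order were compared within each library as log2 ratios of counts with 0.5 added, by a two-sided permutation test that flips signs, with Benjamini-Hochberg adjustment over the 4 pairs. Mature miRNAs are of nearly equal length, 22 to 24 bases here, so levels were not divided by it. Whether the libraries captured different miRNAs equally well was not tested, so the order is one of counts. MiR-125b-5p exceeded miR-125a-5p in 85 of 85 libraries, by 2.04 ± 0.38 on the log2 scale (SD, n = 85). MiR-99a-5p exceeded miR-100-5p in 85 of 85, by 3.19 ± 0.89 (SD, n = 85). Both had p = 1e-05, the smallest that the permutations can give (adjusted p = 1.33e-05).

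The order of miR-125a-5p and miR-99a-5p depended on the run. Over all libraries miR-125a-5p was higher by 0.35 ± 0.71 (SD, n = 85; p = 1e-05, adjusted p = 1.33e-05, permutation test), with more counts in 55 libraries, fewer in 26 and as many in 4. Its pooled counts were 2.23 times those of miR-99a-5p in libraries 1 to 10 and 1.25 times in libraries 22 to 48. They were 0.966 times those of miR-99a-5p in libraries 49 to 59 and 0.952 times in libraries 60 to 85. In those last 2 runs the difference was smaller than the spread between libraries.

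MiR-100-5p exceeded miR-99b-5p by 0.58 ± 1.45 (SD, n = 85; p = 0.00039, permutation test), with more counts in 50 libraries, fewer in 22 and as many in 13. Libraries 1 to 10 went the other way from the other long runs. The pooled ratio was 0.830 in libraries 1 to 10, with miR-100-5p higher in 3 of 10. It was 2.5 in libraries 22 to 48, 1.57 in libraries 49 to 59 and 1.78 in libraries 60 to 85, with miR-100-5p higher in 19 of 27, 10 of 11 and 15 of 26.

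**Figure D2:**
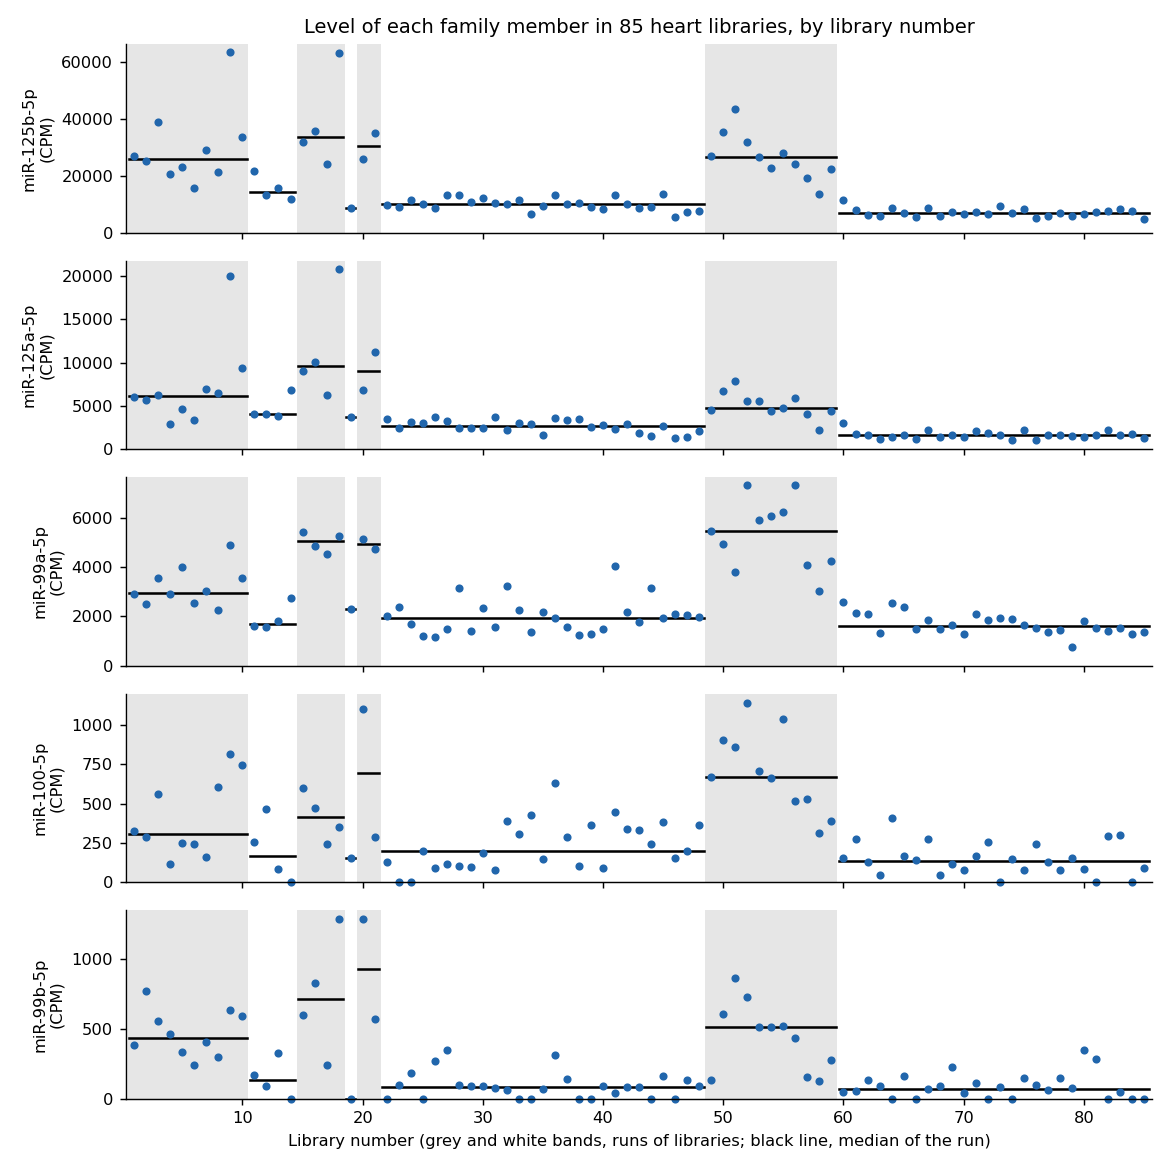
CPM of each member (vertical axes, linear from 0) in 85 libraries by library number, with runs in grey and white bands and the median of each run as a black line. MiR-125b-5p lies between 4843 and 63336 CPM. In libraries 1 to 10 and 49 to 59 its lowest values, 15608 and 13644 CPM, are above every value of libraries 22 to 48 and 60 to 85.

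By the median of a run, all 5 members stood higher in the runs 1 to 10, 15 to 18, 20 to 21 and 49 to 59 than in the long runs 22 to 48 and 60 to 85. The family took a median of 3.55% of counts in libraries 1 to 10 (range 2.21% to 8.97%) and 3.82% in libraries 49 to 59 (1.93% to 5.68%). It took 1.53% in libraries 22 to 48 (0.902% to 2.01%) and 1.07% in libraries 60 to 85 (0.758% to 1.73%). The ranges of the first pair of runs and of libraries 60 to 85 do not overlap.

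The size of this step differed between members. The pooled CPM of miR-125b-5p in libraries 1 to 10 was 2.96 times that in libraries 22 to 48, and miR-125a-5p was 2.78 times as high. For miR-99a-5p the same ratio was 1.56, with overlapping ranges of 2262 to 4914 and 1164 to 4066 CPM. Between libraries 49 to 59 and 60 to 85 the 3 members moved more alike, with ratios of 3.73, 3.08 and 3.04.

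MiR-99a-5p ranged there from 3018 to 7340 and from 774 to 2581 CPM, without overlap. The runs were set from the profiles of these same libraries, so separate ranges of a member or of the family are no test. How many of the other miRNAs separate in this way was not counted, so separate ranges are not shown to be particular to the family. The steps were ranked from the highest on the log2 scale after TMM (edgeR's scaling of library sizes). MiR-125b-5p ranked 4 and 1 of the 51 well-counted miRNAs for these contrasts, miR-125a-5p ranked 10 and 7, and miR-99a-5p ranked 17 and 6. The medians of all 51 were 0.20 and 0.14 on that scale, and 0.43 and 0.52 in plain CPM. The let-7 partners stepped with the family, let-7c-5p by 3.73 and 3.51 times and let-7a-5p by 3.06 and 2.65 times.

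Some markers of other cells moved with the runs as well. The leukocyte list (miR-142a-3p, miR-223-3p and miR-150-5p) summed to a median of 0.492% of counts in libraries 1 to 10 (range 0.339% to 0.671%) and 0.566% in libraries 49 to 59 (0.407% to 0.981%). It summed to 1.71% in libraries 22 to 48 (0.934% to 2.99%) and 1.72% in libraries 60 to 85 (0.692% to 3.93%). This sum was mostly miR-142a-3p, with 14800 counts, beside 1111 for miR-223-3p and 699 for miR-150-5p. Pooled CPM of miR-142a-3p was 1698 and 3043 in libraries 1 to 10 and 49 to 59. It was 16933 and 17324 in libraries 22 to 48 and 60 to 85. The change of the sum is thus that of miR-142a-3p, and miR-223-3p and miR-150-5p were not examined by run. The cardiomyocyte list of 4 miRNAs (miR-1a-3p, miR-133a-3p, miR-208a-3p and miR-499-5p) summed to medians between 21.3% and 24.1% in these runs, and all 4 had a count in all 85 libraries. Its members moved apart, however. Pooled CPM of miR-133a-3p in libraries 1 to 10 was 2.53 times that in libraries 22 to 48. Between libraries 49 to 59 and 60 to 85 the ratio was 2.49. The same ratios were 0.716 and 0.715 for miR-1a-3p, 0.132 and 0.226 for miR-208a-3p, and 0.718 and 0.741 for miR-499-5p. The endothelial list (miR-126a-3p and miR-126a-5p) moved little, with medians between 5.88% and 6.57% in these runs and overlapping ranges. The smooth muscle list (miR-143-3p and miR-145a-5p) had medians between 3.55% and 4.34%, also with overlapping ranges. Its members moved apart too, with the same ratios at 2.76 and 3.65 for miR-145a-5p and 0.828 and 0.992 for miR-143-3p. The neuronal miR-124-3p was at 0 in all libraries.

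The fibroblast list (miR-199a-3p, miR-199a-5p and miR-214-3p) moved in the direction of the family. It summed to a median of 1.404% of counts in libraries 1 to 10 (range 1.07% to 1.77%) and 1.14% in libraries 49 to 59 (1.01% to 1.55%). It summed to 0.956% in libraries 22 to 48 (0.436% to 1.42%), which overlaps both, and to 0.679% in libraries 60 to 85 (0.521% to 0.868%), which lies below both. Its sum was mostly miR-199a-3p, with 9607 counts, while miR-214-3p had 6. The part of leukocytes or fibroblasts in the family's step between runs was not tested.

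Nearly all counts of the members' precursors came from the 5p arm. The share of the 5p arm was 99.6% for Mir99a (2977 of 2990 counts), 99.9% for Mir125a (3849 of 3853) and 99.1% for miR-125b over both loci (16329 of 16469). For Mir99b it was 97.5% (237 of 243; 95% Wilson interval, 94.7% to 98.9%). Mir100 had no 3p count beside 342 5p counts, which allows a 3p share of up to 0.877%.

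The 3p arms tell the miR-125b loci apart, since their seeds differ.
miR-125b-2-3p: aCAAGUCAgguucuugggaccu
miR-125b-1-3p: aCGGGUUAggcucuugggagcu

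MiR-125b-2-3p, from the chromosome 16 cluster, had 135 counts in 63 libraries, and miR-125b-1-3p, from chromosome 9, had 5 counts in 5 libraries. The chromosome 16 locus thus held 96.4% of the counts that name a locus (95% Wilson interval, 91.9% to 98.5%). This is a share of 3p strands, and the loci may keep that strand to different extents, so it does not give the origin of the 5p counts. The first genes of the same clusters were unequal in the same direction, with miR-99a-5p holding 89.7% of the 3319 counts of miR-99a-5p and miR-100-5p (88.6% to 90.7%). Let-7a-2-3p of the chromosome 9 cluster had no count, and let-7c-1-3p of the chromosome 16 cluster had 8. Let-7c-2-3p, listed for the chromosome 15 locus outside the 3 clusters, had 158 counts in 66 libraries. Its sequence is also that of let-7a-1-3p, so these counts do not name a single locus. How much of let-7c-5p or let-7a-5p came from the clusters is thus not known.

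The 3p arm did not follow the 5p arm across the runs. MiR-125b-5p stood at 30171 CPM (pooled over the run) in libraries 1 to 10 and 26548 CPM in libraries 49 to 59, against 10199 and 7119 CPM in libraries 22 to 48 and 60 to 85. MiR-125b-2-3p stood at 110 CPM (exact Poisson interval, 54.8 to 197) and 79.3 CPM (42.2 to 136) in the first pair, and at 146 CPM (108 to 194) and 110 CPM (81.3 to 144) in the other. These 4 intervals overlap.

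As a result, the 5p counts per 3p count were 275 (153 to 550) and 335 (196 to 629) in libraries 1 to 10 and 49 to 59. In libraries 22 to 48 and 60 to 85 they were 69.6 (52.7 to 94.1) and 65 (49.3 to 87.6). The intervals take the counting error of the 3p arm alone, and those of the first pair lie above those of the other.

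**Figure D3:**
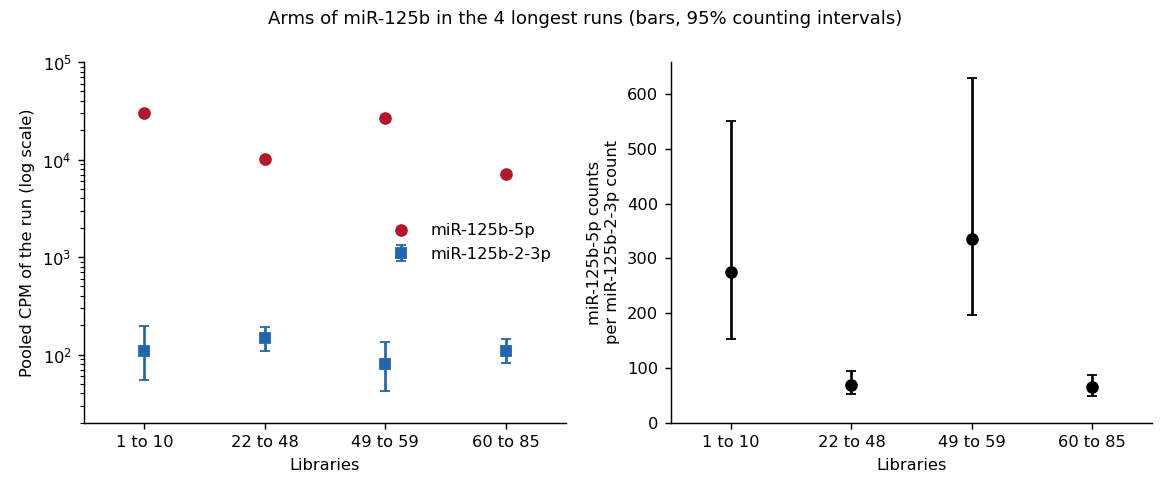
Left, pooled CPM (log axis) of miR-125b-5p (red circles) and miR-125b-2-3p (blue squares, exact 95% Poisson intervals) in the 4 longest runs. Right, miR-125b-5p counts per miR-125b-2-3p count with 95% intervals from the 3p count. The ratio was 275 and 335 in libraries 1 to 10 and 49 to 59, and 69.6 and 65 in libraries 22 to 48 and 60 to 85.

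The question that the clusters raise is whether miRNAs encoded together vary together from heart to heart. It was asked within runs: each miRNA's log2 CPM (TMM, prior count of 2) was centred on its run, and Pearson's r was taken over the 85 libraries. The two-sided test permuted libraries within runs 100000 times, and p-values were adjusted over all 1275 pairs of the 51 miRNAs kept by the count filter. MiR-125b-5p, miR-125a-5p, miR-99a-5p, let-7a-5p and let-7c-5p were kept, and miR-100-5p, miR-99b-5p and let-7e-5p were not. CPM values of a library share 1 total, which ties all miRNAs to each other to some degree.

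Of the 10 pairs among these 5 miRNAs, 7 were called at an adjusted p under 0.05, all with a positive r. Over all 1275 pairs, 25.3% were called in either direction and 14.7% with a positive r, and the median r was 0.03. Of the 4 pairs that share a cluster, 3 were called, and of the 6 pairs that do not, 4 were called.

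The strongest pair of family members was not a pair of neighbours. MiR-125b-5p and miR-125a-5p, encoded on different chromosomes, had r = 0.72 (rho = 0.59; p = 1e-05, the smallest the permutations can give, adjusted p = 0.000345), the 6th highest of the 1275 pairs. It was 0.64 without libraries 9 and 51, the farthest from the median of miR-125b-5p, and between 0.67 and 0.76 with each library left out in turn. By run it was 0.91 in libraries 1 to 10, 0.39 in libraries 22 to 48, 0.94 in libraries 49 to 59 and 0.67 in libraries 60 to 85. It was positive in each, and higher in the runs where the family was abundant.

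MiR-125b-5p and miR-99a-5p, which share the chromosome 16 cluster, had r = 0.33 (rho = 0.27; adjusted p = 0.0104, permutation test). The rank correlation did not pass (adjusted p = 0.0635). Without libraries 9 and 51, r was 0.32 (adjusted p = 0.0218). By run it was 0.83, 0.20, 0.42 and 0.40 in the same order of runs, and so positive in all 4. The call was lost with DESeq2 size factors (r = 0.22), with no filter (r = 0.34, among 149878 pairs), with biweight midcorrelation (r = 0.28) and with differences between adjacent libraries (r = 0.39). It was also lost with adjacent differences within runs (r = 0.28) and in libraries 22 to 48 and 60 to 85 (r = 0.27).

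MiR-99a-5p and let-7c-5p, the closest neighbours among the well-counted miRNAs with 656 bases between their precursors, had r = 0.21 (rho = 0.14; adjusted p = 0.121). By run it ran from 0.62 in libraries 1 to 10 to -0.17 in libraries 60 to 85. Without libraries 41 and 79, the farthest from the median of miR-99a-5p, it was 0.23.

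The miR-125 members were tied more closely to let-7a-5p and let-7c-5p, and this held within and outside a cluster. MiR-125b-5p had r = 0.64 with let-7a-5p and r = 0.55 with let-7c-5p, both of which share a cluster with it (adjusted p = 0.000345 and 0.000648). MiR-125a-5p, whose own cluster partner is let-7e-5p, had r = 0.64 and r = 0.52 with them (adjusted p = 0.000345 and 0.00081). MiR-99a-5p and let-7a-5p, of different clusters, had r = 0.21 (adjusted p = 0.131), close to the value for its neighbour let-7c-5p.

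Spearman's rho was lower for all 4 of these miR-125 and let-7 pairs, at 0.49 and 0.37 for miR-125b-5p with let-7a-5p and let-7c-5p, and 0.41 and 0.31 for miR-125a-5p (adjusted p between 0.00051 and 0.0475). Without the 2 farthest libraries, r was 0.56 and 0.46 for miR-125b-5p, and 0.51 and 0.43 for miR-125a-5p, which kept all 4 calls.

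**Figure D4:**
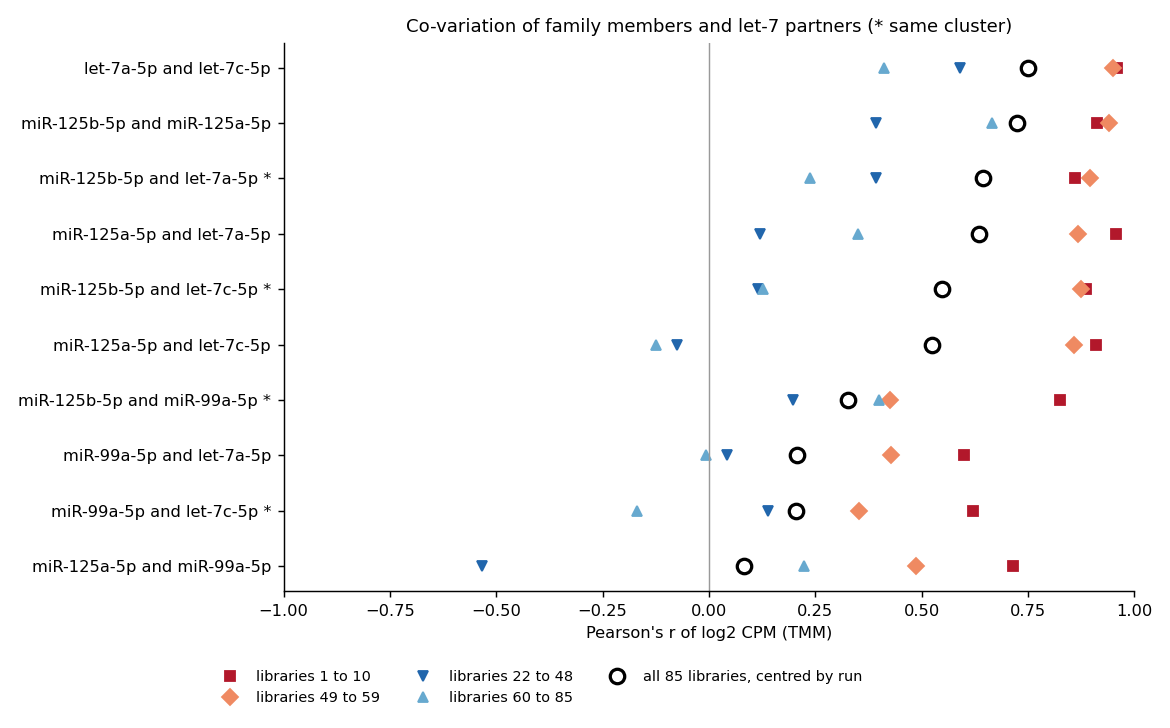
Pearson's r (horizontal axis) of the 10 pairs among miR-125b-5p, miR-125a-5p, miR-99a-5p, let-7a-5p and let-7c-5p, over 85 libraries centred by run (open circles) and in each of the 4 longest runs (filled symbols). Stars mark pairs of the same cluster. For miR-125a-5p and let-7c-5p, r is 0.91 and 0.86 in libraries 1 to 10 and 49 to 59, and -0.07 and -0.12 in libraries 22 to 48 and 60 to 85.

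The runs in which let-7 and the family were abundant carried most of the ties with let-7. Over the 21 libraries numbered 1 to 10 and 49 to 59, centred by run, 8 of the 10 pairs were called (11.8% of all pairs, 9.02% with a positive r). Over the 53 libraries numbered 22 to 48 and 60 to 85, 2 were called (9.73% of all pairs, 4.16% with a positive r): miR-125b-5p with miR-125a-5p, at r = 0.50, and let-7a-5p with let-7c-5p, at r = 0.51. There miR-125b-5p had r = 0.33 with let-7a-5p and 0.12 with let-7c-5p, against 0.85 and 0.88 in the other set. The difference between the sets was not tested, and both splits were added after the data were seen. The within-run SD of log2 CPM of miR-125b-5p was 0.58 and 0.50 in libraries 1 to 10 and 49 to 59, and 0.28 and 0.24 in libraries 22 to 48 and 60 to 85.

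MiR-125a-5p and miR-99a-5p had the lowest r of the 10 pairs, 0.08 (rho = 0.0015; adjusted p = 0.6), and it ranged by run from 0.72 in libraries 1 to 10 to -0.53 in libraries 22 to 48. The value changed sign with the processing: it was -0.02 with DESeq2 size factors and with biweight midcorrelation, -0.04 without libraries 4 and 9, and -0.01 without library 9 alone.

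MiR-99a-5p could thus be set against 2 miR-125 members, its cluster partner miR-125b-5p and the paralog miR-125a-5p of another cluster. Its r was higher with the partner by 0.25 (0.33 against 0.08; Williams' test for correlations that share a variable, two-sided, p = 0.00261, with 78 as the effective number of libraries). Over libraries 1 to 10 and 49 to 59 alone the difference was 0.02 (p = 0.786), and over libraries 22 to 48 and 60 to 85 alone it was 0.54 (p = 3.87e-05). The members differ in depth: counting error made up 11.8% of the within-run variance of miR-125b-5p, 29.9% for miR-125a-5p and 62.3% for miR-99a-5p. The part of counting error in the difference was not tested.

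The other 5 contrasts of a partner with a paralog needed miR-100-5p, miR-99b-5p or let-7e-5p and could be made only without the count filter. None was called, with differences between -0.12 and 0.22 and unadjusted p from 0.115 to 0.819 (adjusted over the 6 contrasts, 0.274 to 0.819), where that of miR-99a-5p was 0.26 (adjusted p = 0.0101). Among the 18 pairs with at least 1 of these 3 miRNAs, r ran from -0.03 to 0.41 with a median of 0.21, and 0 were called by the permutation test among all 149878 pairs (8 had an unadjusted p under 0.05), of which 0.0874% were called in either direction and 0.0841% with a positive r. At a median of 2, 3 and 7 counts a library for miR-99b-5p, miR-100-5p and let-7e-5p these pairs rest on few counts, and the adjustment over all pairs without the filter also ended the call of the better counted miR-125b-5p and miR-99a-5p (adjusted p = 0.291). What depth could have shown there was not tested.

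**Figure D5:**
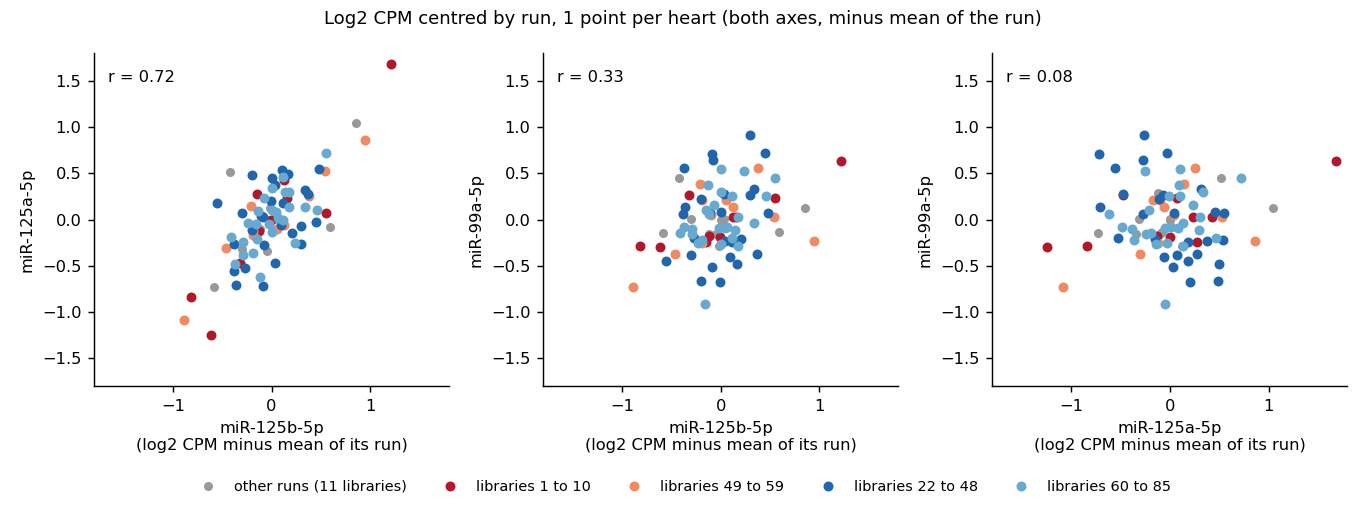
Log2 CPM minus the mean of its run, 1 point per heart, for miR-125a-5p against miR-125b-5p, miR-99a-5p against miR-125b-5p and miR-99a-5p against miR-125a-5p, coloured by run. The cloud is elongated in the first panel (r = 0.72), less so in the second (r = 0.33) and not in the third (r = 0.08).

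Ratios of counts within a library do not depend on how libraries are scaled, and they gave a second view of the same pairs. Each ratio was tested for equality across the libraries of a run by a chi-square test, with p-values adjusted over the 6 ratios with enough counts. The ratio of miR-125a-5p to miR-125b-5p was the steadiest of the 5 well-counted ratios, with a pooled value of 0.236. It ran from 0.141 (library 4) through a median of 0.236 to 0.588 (library 14). Its chi-square was 1.53 per degree of freedom (adjusted p = 0.00237), and its SD within runs beyond counting error was 0.18 on the log2 scale.

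Ratios of cluster partners on chromosomes 16 and 9 varied more. The chi-square per degree of freedom was 2.73 for miR-99a-5p to miR-125b-5p (adjusted p = 4.38e-14) and 2.94 for miR-99a-5p to let-7c-5p (adjusted p = 2.80e-16), and the SD beyond counting error was 0.31 for each. It was 4.15 for let-7c-5p to miR-125b-5p and 3.84 for let-7a-5p to miR-125b-5p (adjusted p = 1.87e-30 and 7.18e-27), with SDs of 0.28 and 0.23. A chi-square grows with depth, so the SDs are the values to compare, and no error was computed for them. MiR-125a-5p to miR-125b-5p was the only well-counted ratio taken between clusters. Whether partners in general vary more against each other than other pairs do thus cannot be told. Counts of miR-125b-5p, let-7a-5p and let-7c-5p may also come from a locus outside the shared cluster.

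Within the compact chromosome 17 cluster, let-7e-5p and miR-125a-5p had a pooled ratio of 0.216. Within runs, no variation of this ratio beyond counting error was called at this depth (chi-square of 1.22 per degree of freedom, adjusted p = 0.091). Its SD beyond counting error was 0.18, where counting error alone gave 0.68. By run it was 0.253, 0.182, 0.274 and 0.209 in libraries 1 to 10, 22 to 48, 49 to 59 and 60 to 85. Without the filter, let-7e-5p had r = 0.19 with miR-125a-5p and r = 0.34 with miR-125b-5p of other clusters, neither called. The 7 ratios with miR-100-5p or miR-99b-5p had too many expected counts under 5 for the test, and their chi-squares per degree of freedom lay between 0.914 and 1.34. By run, miR-99a-5p per let-7c-5p count was 0.0828 in libraries 1 to 10 and 0.198, 0.180 and 0.208 in libraries 22 to 48, 49 to 59 and 60 to 85, so the first run stood apart from the others.

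Of all 51 miRNAs kept, the miR-125 members were among the most variable between hearts of a run. The biological coefficient of variation, edgeR's estimate of spread beyond counting error, was 0.305 for miR-125a-5p (rank 4 of 51), 0.252 for miR-125b-5p (rank 7) and 0.205 for miR-99a-5p (rank 16). For let-7c-5p and let-7a-5p it was 0.204 and 0.190. MiR-125a-5p thus varied most among the 3 well-counted members on this measure too.

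Within runs, no member's trend with library number was called, in a test that called 1 of 20 simulated slopes of 0.1. The slopes were -0.12 (SE 0.09) for miR-125a-5p, -0.10 (SE 0.07) for miR-125b-5p and -0.06 (SE 0.07) for miR-99a-5p, in log2 units per 10 libraries (adjusted p = 0.617, 0.548 and 0.754 in edgeR's quasi-likelihood test). Of the 51 miRNAs, 0 were called in edgeR (0.0%), 6 had an unadjusted p under 0.05, and DESeq2's Wald test also called 0. Without runs in the design, 44 of 51 were called (86.3%), the 3 members among them with slopes of -0.25, -0.21 and -0.06.

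The miRNAs whose pattern within runs was most like that of a member were found among all 50 others. After each other, the miR-125 members were closest to let-7a-5p and to miR-133a-3p, a miRNA of heart and skeletal muscle that had r = 0.60 with miR-125b-5p and 0.64 with miR-125a-5p (adjusted p = 0.000345 for both). MiR-99a-5p was closest to other miRNAs, miR-22-3p (r = 0.46), let-7d-5p (r = 0.40) and miR-378a-3p (r = 0.35), with adjusted p of 0.00134, 0.0019 and 0.00464. The lowest r was that of miR-21a-5p for miR-125b-5p (-0.50), of miR-30b-5p for miR-125a-5p (-0.55) and of miR-126b-3p for miR-99a-5p (-0.28).

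With the let-7 family as a whole, miR-125b-5p was called with 7 of the 7 let-7 members kept (median r = 0.46) and miR-125a-5p with 6 of 7 (median r = 0.52), all positive, beside 14.7% of all pairs. MiR-99a-5p was called with 1 of 7, let-7d-5p (median r = 0.21). In libraries 22 to 48 and 60 to 85 alone, r of miR-125b-5p ran from -0.12 (let-7g-5p) to 0.34 (let-7i-5p). That of miR-125a-5p ran from -0.24 (let-7g-5p) to 0.47 (let-7i-5p). In libraries 1 to 10 and 49 to 59 they ran from 0.63 (let-7f-5p) to 0.91 (let-7b-5p) and from 0.61 (let-7f-5p) to 0.94 (let-7b-5p).

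Cardiomyocyte miRNAs did not move as a block with the miR-125 members. While miR-133a-3p rose and fell with them, the other 3 of the list went the opposite way. MiR-1a-3p had r = -0.44 and -0.47 with miR-125b-5p and miR-125a-5p, the heart-specific miR-208a-3p -0.30 and -0.44, and miR-499-5p -0.39 and -0.50 (adjusted p between 0.00049 and 0.0237).

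Of the endothelial pair, miR-126a-5p was called at r = -0.37 and -0.47 (adjusted p = 0.0174 and 0.00253) and miR-126a-3p was not, at -0.06 and -0.13. The smooth muscle marker miR-145a-5p was called with miR-125a-5p alone (r = 0.32, adjusted p = 0.0219), with an r of 0.57 over libraries 1 to 10 and 49 to 59 and of -0.023 over libraries 22 to 48 and 60 to 85. Neither miR-143-3p of smooth muscle, miR-199a-3p of fibroblasts nor miR-451a of red cells was called with any member. The liver marker miR-122-5p, with 399 counts, and the neuronal miR-9-5p, with 307, did not pass the count filter.

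The leukocyte marker miR-142a-3p also went against them, at r = -0.41 and -0.43 (adjusted p = 0.00377 and 0.00237). MiR-99a-5p was called with miR-133a-3p (r = 0.29, adjusted p = 0.0197) and with no other cell type marker kept. Since shares of 1 total are compared, a high share of one miRNA lowers that of others, and the part of this in the negative values was not tested.

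Relatives by sequence outside the family had far fewer counts than miR-125b-5p, miR-125a-5p and miR-99a-5p. MiR-351-5p, which carries the miR-125 seed, had 42 counts in 34 libraries. MiR-10a-5p and miR-10b-5p, whose sequences resemble miR-100, had 612 and 237 counts, beside 342 for miR-100-5p and 237 for miR-99b-5p. Neither miR-6394 nor miR-6367, which also carry the miR-125 seed in the sequences used here, had a count.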

How the data were processed

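MiRNA libraries of 85 hearts were made by the authors from miRNeasy RNA with the QIAseq miRNA Library Kit, sequenced on a HiSeq, mapped with HISAT2 2.0.6 and counted with HTSeq 0.13.5 (mm10 per the labels). The deposited values are raw counts per mature miRNA, without normalization. Strand setting, multiple mapping, trimming and the miRNA annotation are not given in the sources used here. All 85 columns matched a title. Totals ran from 1457 to 30202 counts.

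Counts were scaled by TMM in edgeR 4.0.16 (R 4.3.3), and filterByExpr (10 counts in at least 63 libraries) kept 51 of 548 miRNAs. Log2 CPM used a prior count of 2. Correlations, permutation tests and chi-square tests were run in Python 3.11.15 with numpy 2.4.6, scipy 1.17.1 and pandas 2.3.3, and plots with matplotlib 3.10.9. Trends were fitted with run and library number by edgeR's quasi-likelihood test, with a threshold of 0.05 on the adjusted p.

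Members, runs, lists and tests were chosen with earlier results of these data known. The miRNAs named were the members, their arms and cluster partners, rows with their seed, 3 relatives, the let-7 and cell type lists, and for each member the 3 miRNAs with the highest r and the 1 with the lowest. Alternatives were DESeq2 1.42.0 size factors and Wald test, CPM without TMM, no filter, other added counts, 84 libraries of at least 5000 counts, the log2 total as a term, adjacent differences, biweight midcorrelation and leaving libraries out. Others, chosen after seeing the data, were adjacent differences within runs and subsets of the runs. No pair of libraries agreed within sampling noise (over 3570 pairs, chi-square per degree of freedom was at least 1.29).

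Tested on simulated data, the correlation test called 5 of 5 related pairs made with an r of 0.6 among 1275 and 0 others. The made values had no counting error and an equal spread in all runs. What the test would call among weaker or less well counted pairs was not tested. The trend test called 15 of 15 miRNAs with a slope of 0.3 log2 per 10 libraries and 1 of 20 with a slope of 0.1, and 1 of 39 and 0 of 34 unchanged ones. P-values measure the spread between these hearts, except those of the chi-square tests. The chi-square tests set the spread of ratios against counting error.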

Additional observations from a re-analysis of the deposited data

How the results depend on the processing

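The count of called pairs was 7 of 10 with each of the 85 libraries left out (lowest 7, highest 7) and between 5 and 8 under the other settings, except for 3 with adjacent differences within runs and 2 in libraries 22 to 48 and 60 to 85. The higher r of miR-99a-5p with miR-125b-5p than with miR-125a-5p was no longer called with adjacent differences within runs (0.21, p = 0.0632) and in libraries 1 to 10 and 49 to 59 (0.022, p = 0.786). It was positive under every setting tried. The r of miR-125a-5p and miR-99a-5p changed sign with DESeq2 size factors (-0.025), biweight midcorrelation (-0.023), without the 2 farthest libraries (-0.037), in libraries 22 to 48 and 60 to 85 (-0.27), and without library 9 (-0.012; 0.128 at most with a library left out). That of miR-125a-5p and let-7c-5p was -0.095 in libraries 22 to 48 and 60 to 85. The log2 ratio of miR-125a-5p to miR-99a-5p was -0.074 in libraries 49 to 59 and -0.048 in libraries 60 to 85, and that of miR-100-5p to miR-99b-5p was -0.31 in libraries 1 to 10. In libraries 60 to 85 alone, 2 of the 4 level differences were called. Trends were called for 1 miRNA with DESeq2 size factors (miR-208a-3p, named after its value was seen) and 44 without runs. The coefficient of variation of miR-125b-5p was 0.229 with DESeq2 size factors. The causes were not tested. The count filter left out miR-100-5p, miR-99b-5p and let-7e-5p, so their relations were computed only without it. No paired analysis was possible because the libraries form a single group.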
